A study of Caenorhabditis elegans with 6 samples.

Results

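The genes described here encode the enzymes of central carbon metabolism in *C. elegans*, from glycolysis and gluconeogenesis through the tricarboxylic acid (TCA) cycle to the glyoxylate cycle and trehalose synthesis. They were chosen by name, as 48 WormBase symbols, among 46904 gene identifiers in the deposited count table, and all 48 were matched. Of these, 47 had a level of at least 1 CPM (counts scaled to a common library total) in at least 3 of the 6 libraries and were tested, among 12385 genes in all. The exception was *pfk-1.2*. RNA was taken from whole N2 worms, the wild-type laboratory strain. In 3 libraries the worms were untreated controls and in the other 3 they had been kept from young adulthood on plates with 50 µM CGP37157, a benzothiazepine that inhibits the mitochondrial Na+/Ca2+ exchanger. Both groups carried no mutation or transgene, fed on OP50 bacteria, and were collected at day 5 of treatment, when the labels give their age as 5 days. The study asked whether the compound alters the expression of genes in pathways that govern lifespan or of genes that handle Ca2+, and the metabolic genes described here were not singled out in that question.

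Glycolysis splits glucose into pyruvate, and gluconeogenesis runs the same path backwards with its own enzymes at the irreversible steps. Pyruvate dehydrogenase turns pyruvate into acetyl-CoA, which the TCA cycle oxidizes in mitochondria to feed the respiratory chain, and several of its dehydrogenases in mammals are activated by mitochondrial Ca2+. Unlike mammals, *C. elegans* also has a glyoxylate cycle, through which carbon from stored fat can become sugar, and it makes trehalose, a disaccharide that serves as a store and as a protectant under stress.

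Sequencing gave 21122852 to 24551795 gene counts a library, so that counting error was small for the 47 tested genes, whose mean control levels lay between 22.3 and 1103 CPM. Levels are given as CPM after TMM scaling, which sets the libraries to a common scale, always in the order of replicates 1, 2 and 3. Control replicate 2 stood apart from the other libraries, with the lowest TMM factor (0.815, against 0.955 to 1.13) and the most extreme position on the first principal component, and results that rest on it are given with and without it. The labels do not say whether replicates came from separate cultures, and p-values then measure the spread between these samples, which may be technical. In RNA from whole worms, fewer cells of a type and less RNA per cell cannot be told apart.

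By edgeR's quasi-likelihood test, 0 of the 47 genes passed a threshold of 0.05 on p-values adjusted over all genes tested. Of all 12385 genes, 1.4% passed (1.16% higher and 0.234% lower in treated worms). A single member, *gpdh-1*, had an unadjusted p under 0.05 and was lower, where 4.79% of all genes had one (2.82% higher and 1.97% lower). The likelihood ratio test and DESeq2 each called 0 of the 47, against 2.08% and 2.1% of all genes. The log2 fold changes of the 47 (treated over control) lay between -0.80 for *gpdh-1* and 0.54 for *aco-1*. Their median was -0.018, against -0.014 for all tested genes, with 21 above 0 and 26 below. For 42 genes the log2 fold change lay within 0.25 of 0. For 43 of the 47, the 95% interval of the log2 fold change lay within 1 of 0 on both sides, so that a doubling or a halving was outside it, as it was for 74.2% of all tested genes. The exceptions were *aco-1*, *icl-1*, *pck-1* and *gpdh-1*. Intervals of this width still hold smaller changes, since the median standard error was 0.24.

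**Figure D1:**
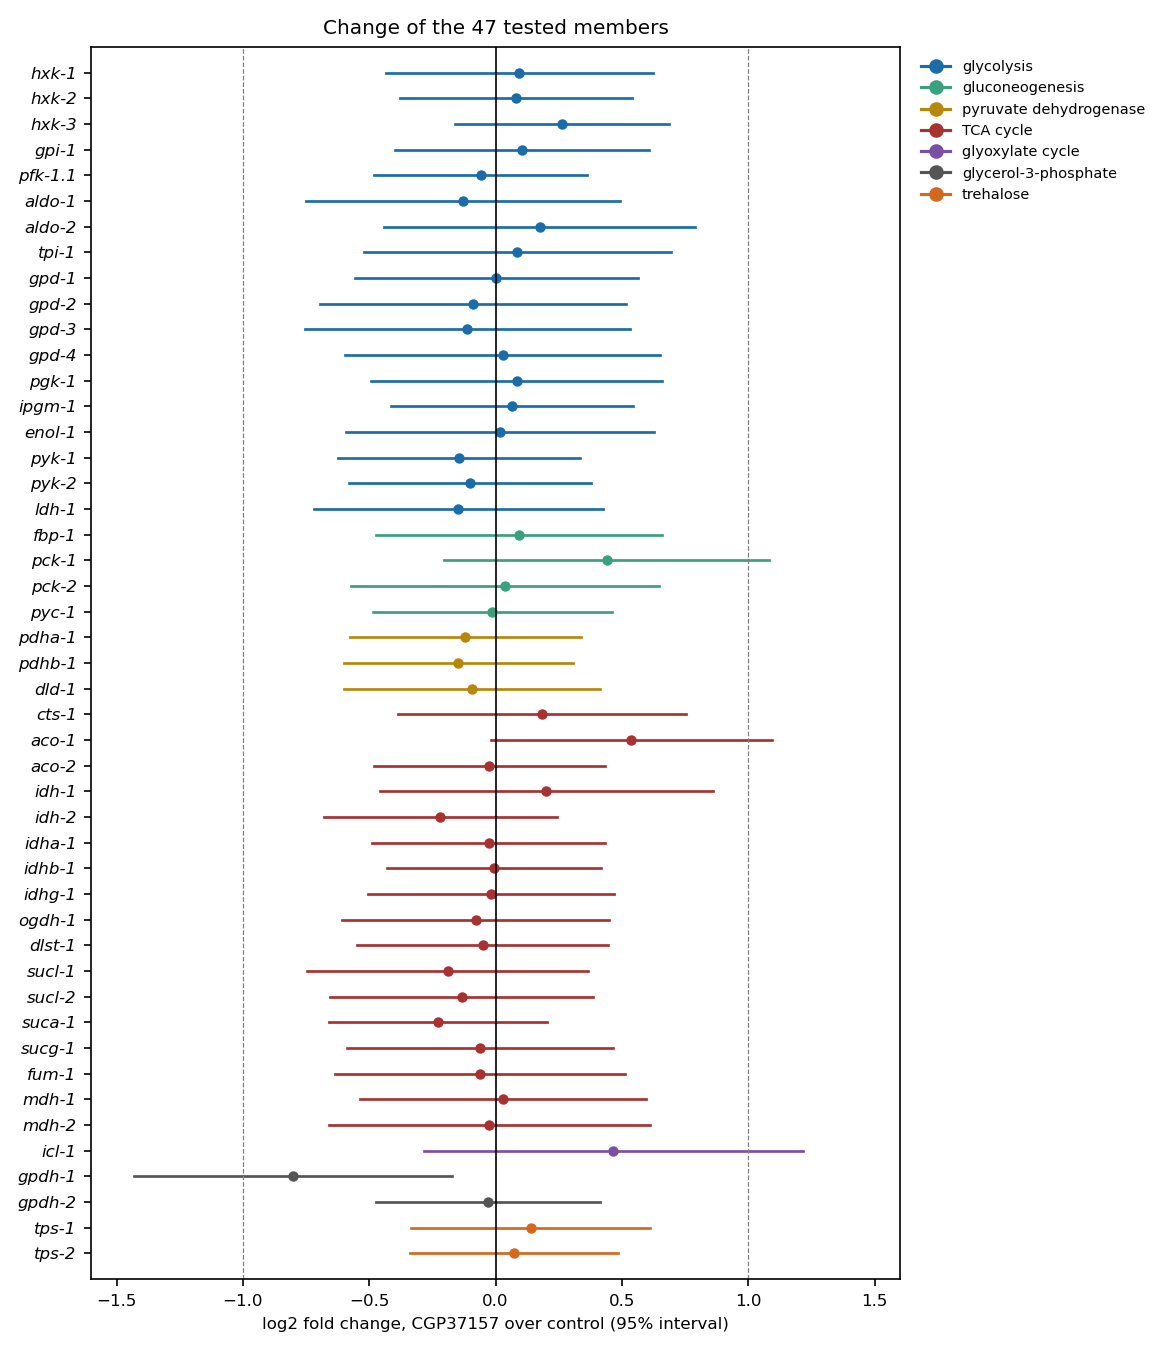
Log2 fold change of CGP37157-treated over control worms for the 47 tested genes (points) with its 95% interval (lines), coloured by pathway. The intervals of all genes but *gpdh-1* include 0, and dashed lines mark a doubling and a halving.

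The genes varied together from library to library, in a way that did not follow the treatment. Their summed level was 8059, 12603 and 9297 CPM in the control libraries and 11448, 8728 and 10518 CPM in the treated libraries. On this scale control replicate 2 was the highest and control replicate 1 the lowest of the 6, with the treated libraries between them. The rank of control replicate 2 rests on its low TMM factor (0.815). Without TMM scaling the genes took 0.907% to 1.09% of a library's counts. Control replicate 1 was still the lowest, but CGP37157 replicate 1 was then the highest. The ranks of single genes given next are on the TMM scale too. For 33 of the 47 genes the highest level of all was in control replicate 2, which was the highest library for 28.7% of all tested genes, and 25 had their lowest level in control replicate 1, against 21.4% of all genes. Among the treated libraries, CGP37157 replicate 2 was the lowest for 36 of the 47 genes, and for 33.4% of all genes. The median of the 47 genes in control replicate 2 lay 0.31 above the mean of the 6 libraries on the scale of log2(CPM + 1), against 0.035 for all genes, while the medians were -0.23 in control replicate 1 and -0.19 in CGP37157 replicate 2. Only *hxk-3*, *pyk-2*, *sucg-1* and *tps-1* were not highest, among the controls, in control replicate 2. These patterns were noticed in the data and are given as a description.

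Control replicate 2 also set the sign of many differences. Without it the median log2 fold change of the 47 genes was 0.19, with 40 above 0 and 7 below, while the median of all tested genes was -0.023. Without control replicate 1 it was -0.12, with 7 above 0 and 40 below. In neither fit did any of the 47 pass an adjusted p of 0.05.

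**Figure D2:**
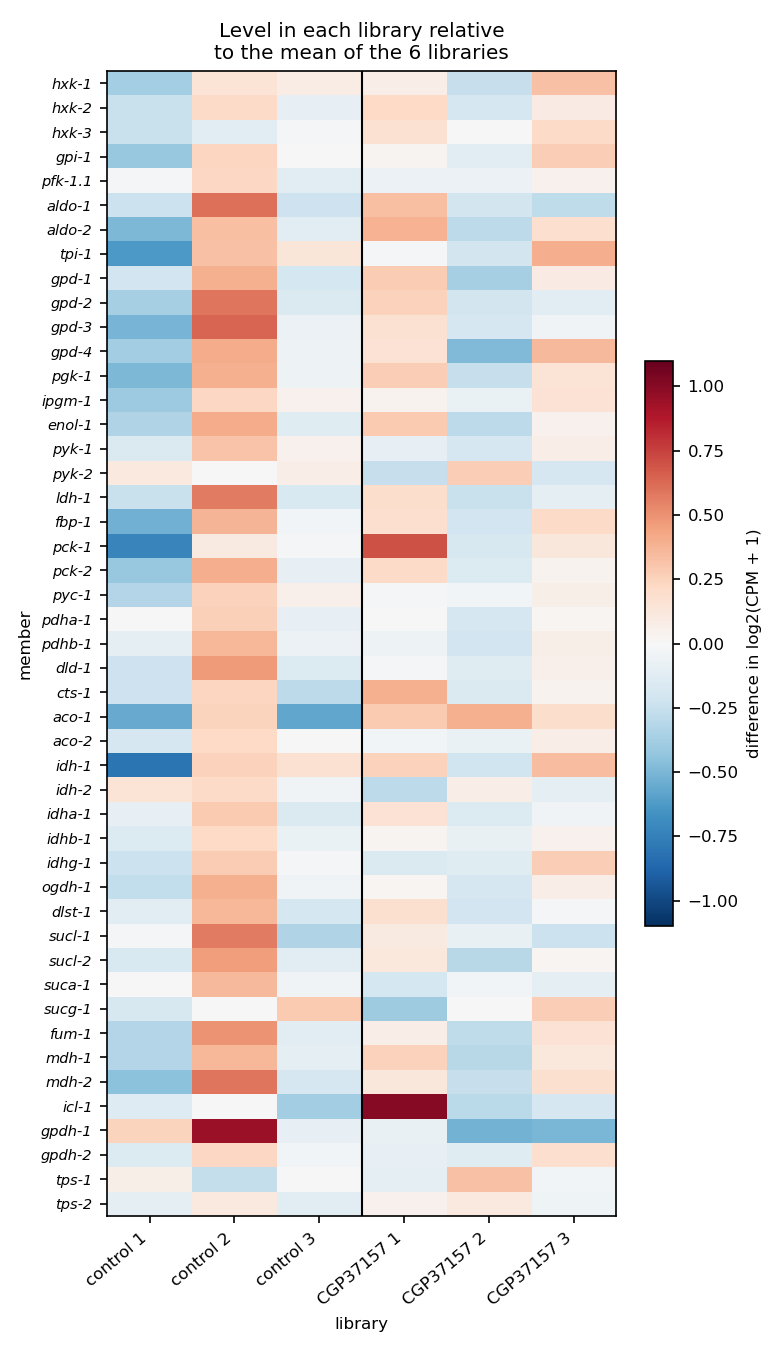
Level of each of the 47 genes in each library as the difference in log2(CPM + 1) from its mean over the 6 libraries, in red above and in blue below it. The column of control replicate 2 is red for most genes and those of control replicate 1 and CGP37157 replicate 2 are mostly blue, on both sides of the line between the groups.

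Lists of tissue markers were examined beside these levels, also on the TMM scale. The 7 germline, oocyte and embryo genes (*glp-1*, *glh-1*, *pgl-1*, *oma-1*, *cbd-1*, *egg-1* and *puf-5*) summed to 4170, 6211 and 4927 CPM in the control and 5868, 4180 and 5820 CPM in the treated libraries. The sum, most of it from *puf-5* and *cbd-1*, was highest in control replicate 2 and low in control replicate 1 and CGP37157 replicate 2. Of the 7 genes, 3 were highest in control replicate 2 and *glp-1* was lowest there, at 74.2 CPM against 107 to 147 CPM in the other libraries. The 4 body-wall muscle genes (*unc-54*, *myo-3*, *unc-15* and *mup-2*) summed to 2080 to 4258 CPM in control and 1857 to 2560 CPM in treated libraries, highest in control replicate 2. The ranks of these 2 sums rest on the low TMM factor of control replicate 2. Scaled by library totals alone, the germline sum was highest in CGP37157 replicate 3 and the muscle sum in control replicate 1. The 5 intestinal genes summed to 80542 to 148565 and 79567 to 85586 CPM. Nearly all of this came from the yolk protein genes *vit-2*, *vit-5* and *vit-6*, each highest in control replicate 2. The other intestinal genes did not share this pattern, since *elt-2*, a transcription factor of the intestine, was lowest in control replicate 2 (27.4, 17.8 and 22.3 CPM in control and 28.1, 28.3 and 20.1 CPM in treated libraries). The esterase gene *ges-1* was at 16.4, 20.4 and 24.8 CPM in control and 27.9, 27.3 and 31.3 CPM in treated libraries, which did not overlap (log2 fold change 0.49). Neurons (4 genes) gave 249 to 348 and 240.4 to 292 CPM, the pharynx (2 genes) 63.9 to 134 and 52.1 to 81.5 CPM, and the hypodermis (3 genes, of which *col-19* alone passed the filter) 1002 to 1815 and 939 to 1522 CPM. Sperm genes were near absent, with *msp-31* at 0 in all libraries and a sum of 0.878 to 3.08 CPM in the 6 libraries. By edgeR's quasi-likelihood test none of the 24 tested markers had an adjusted or an unadjusted p under 0.05, and *ges-1* was the single one of them whose groups did not overlap, where 3.85% of all tested genes were higher and 3.69% lower without overlap. The part of these tissues in the levels of the metabolic genes was not tested.

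Glucose enters glycolysis through hexokinase, for which 3 genes were listed. The gene *hxk-1* was at 224, 321 and 308 CPM in control worms and 306, 243 and 362 CPM in treated worms. For *hxk-2* the levels were 80.3, 110.1 and 89.6 CPM in control worms and 111, 83.6 and 102 CPM in treated worms. In both the groups overlapped, with log2 fold changes of 0.094 (95% interval -0.43 to 0.62) and 0.081 (-0.38 to 0.54). On the TMM scale *hxk-3* was the only one of the 47 whose groups did not overlap. It was at 32.2, 35.2 and 37.8 CPM in control worms and 43.2, 38.6 and 44.5 CPM in treated worms. Groups with every treated library above every control library were found for 3.85% of all tested genes, and for 3.69% with every treated library below. The log2 fold change of *hxk-3* was 0.26 (standard error 0.19, 95% interval -0.16 to 0.69) and edgeR's quasi-likelihood test gave an unadjusted p of 0.198.

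Downstream of hexokinase, *gpi-1* (glucose-6-phosphate isomerase) had a log2 fold change of 0.11. Phosphofructokinase commits the sugar to glycolysis. Its gene *pfk-1.1* was at 58.8, 70.2 and 54.7 CPM in control worms and 57.3, 57.3 and 61.8 CPM in treated worms, a log2 fold change of -0.058 (95% interval -0.48 to 0.36), with the groups overlapping. The second gene, *pfk-1.2*, had raw counts of only 6, 6 and 10 in control and 5, 6 and 4 in treated worms, and was not tested. Without the filter its log2 fold change was -0.74 (95% interval -1.97 to 0.49, unadjusted p = 0.228 by edgeR's quasi-likelihood test). Its scaled levels, 0.251, 0.349 and 0.456 CPM in control and 0.220, 0.219 and 0.171 CPM in treated worms, did not overlap, but rested on at most 10 counts a library, and a change was not detectable at this depth.

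Aldolase splits fructose bisphosphate. The more abundant gene, *aldo-2*, was at 326, 578 and 423 CPM in control worms and 599, 376 and 522 CPM in treated worms, and its log2 fold change was 0.17 (95% interval -0.44 to 0.79). The other, *aldo-1*, was at 72.7, 131 and 72.9 CPM in control worms and 108, 74.0 and 70.5 CPM in treated worms, with a log2 fold change of -0.13 (-0.75 to 0.49). In both, control replicate 2 and CGP37157 replicate 1 were the highest of their group, and the groups overlapped. The gene of triosephosphate isomerase, *tpi-1*, had a log2 fold change of 0.087.

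Glyceraldehyde-3-phosphate dehydrogenase, which makes the first NADH of glycolysis, has 4 genes. In the WBcel235 annotation, *gpd-3* (chromosome X from 3112091 to 3113341, minus strand) lies 101 bases from *gpd-2* (chromosome X from 3113443 to 3114689, minus strand), and *gpd-1* and *gpd-4* lie 221630 bases apart on chromosome II. The members of each pair are nearly identical in sequence, so that the counting could have split their reads, and single values are uncertain. The level of *gpd-3* was 164, 367 and 224 CPM in control worms and 264, 206 and 229 CPM in treated worms, and that of *gpd-2* was 101, 198 and 117 CPM in control worms and 157, 114 and 121 CPM in treated worms. Both were highest in control replicate 2, and the 3 controls differed from each other by more than the group means did. The gene *gpd-1* was at 179.6, 273 and 181 CPM in control worms and 252, 161 and 221 CPM in treated worms. For *gpd-4* the values were 43.4, 76.0 and 54.6 CPM in control worms and 63.8, 40.3 and 73.3 CPM in treated worms. Log2 fold changes were 0.0026, -0.089, -0.11 and 0.028 for *gpd-1* to *gpd-4*, each smaller than its standard error of 0.25 to 0.29.

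In the lower part of glycolysis no gene passed the test. Log2 fold changes were 0.084 for *pgk-1* (phosphoglycerate kinase), 0.065 for *ipgm-1* (the cofactor-independent phosphoglycerate mutase, a form that mammals lack) and 0.018 for *enol-1* (enolase). Pyruvate kinase gives the last ATP of the path. Its main gene *pyk-1* was at 303, 421 and 349 CPM in control worms and 318, 297 and 356 CPM in treated worms, and *pyk-2* at 35.0, 32.3 and 34.3 CPM in control worms and 27.0, 39.3 and 28.4 CPM in treated worms. The groups overlapped in both, with log2 fold changes of -0.14 (-0.62 to 0.33) and -0.10 (-0.58 to 0.38). Unlike most of the listed genes, *pyk-2* was highest in CGP37157 replicate 2. The gene *ldh-1* (lactate dehydrogenase) had a log2 fold change of -0.15. In all, 11 of the 18 tested glycolytic genes were above 0 and 7 below, within a range of -0.15 to 0.26. Without control replicate 2, 16 were above 0 and 2 below, and without control replicate 1 it was 1 above and 17 below.

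Of the 4 genes of gluconeogenesis, *pck-1* had the largest difference. Phosphoenolpyruvate carboxykinase, its product, makes phosphoenolpyruvate from oxaloacetate. The level of *pck-1* was 106, 188 and 173 CPM in control worms and 286, 156 and 191 CPM in treated worms. CGP37157 replicate 1 was far above the rest, and the other treated libraries lay within or just above the control range. The log2 fold change was 0.44 (standard error 0.29, 95% interval -0.20 to 1.08, unadjusted p = 0.159 by edgeR's quasi-likelihood test), and 0.16 without CGP37157 replicate 1. The second carboxykinase gene, *pck-2*, was at 822, 1451 and 1035 CPM in control worms and 1272, 989.9 and 1132 CPM in treated worms, with overlapping groups and a log2 fold change of 0.037 (-0.57 to 0.65). Those of *fbp-1* (fructose-1,6-bisphosphatase) and *pyc-1* (pyruvate carboxylase, which refills oxaloacetate) were 0.091 and -0.013.

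None of the 3 listed genes of pyruvate dehydrogenase passed the test. Log2 fold changes were -0.12 for *pdha-1* and -0.15 for *pdhb-1*, the subunits of the E1 enzyme, and -0.094 for *dld-1*, the dihydrolipoamide dehydrogenase that this complex shares with oxoglutarate dehydrogenase. Without control replicate 2 they were -0.010, 0.019 and 0.16, so that the 3 genes no longer shared a direction. In the TCA cycle, *cts-1* (citrate synthase, the entry of acetyl-CoA) had a log2 fold change of 0.18 (-0.38 to 0.75). Of the 17 genes listed under the cycle, 4 were above 0 and 13 below, but without control replicate 2 the count turned to 14 above and 3 below.

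Aconitase has 2 listed genes. The gene *aco-1* (WBGene00000040, chromosome X from 11339874 to 11343327) encodes the cytosolic enzyme, the relative of the mammalian iron regulatory protein, and *aco-2* the mitochondrial enzyme of the TCA cycle. The level of *aco-1* was 77.9, 136 and 76.9 CPM in control worms and 139.6, 151 and 131 CPM in treated worms. On the TMM scale the treated libraries were close together and above control replicates 1 and 3. Control replicate 2 lay within their range, so the groups overlapped on this scale. Raw counts were 1862, 2339 and 1685 in control and 3171, 4125 and 3070 in treated worms. Scaled by library totals alone, the groups did not overlap. The share of all tested genes without overlap was not taken for that scaling. Mean levels were 96.9 ± 33.8 and 141 ± 9.76 CPM (SD, n = 3 each), and the log2 fold change was 0.54 (standard error 0.25, 95% interval -0.019 to 1.09, edgeR's quasi-likelihood test, unadjusted p = 0.0568, adjusted p = 1.00). Without control replicate 2 it was 0.86, with an adjusted p of 0.0653, and over the other 5 fits that left out a library it was between 0.40 and 0.60. For *aco-2* the levels were 290.3, 383 and 329 CPM in control worms and 323, 314 and 348 CPM in treated worms, with a log2 fold change of -0.025 (-0.48 to 0.43). Per kb of exons, *aco-1* made up 22.5% ± 3.76 of the summed aconitase level in control and 30.5% ± 2.54 in treated worms (SD, n = 3 each), and the shares of the groups did not overlap. The exact permutation test of the difference gave p = 0.1, the smallest that 3 libraries against 3 allow, and an adjusted p of 0.75 over 15 such shares, so that the design cannot call it.

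Isocitrate dehydrogenase exists in an NAD-dependent mitochondrial form of several subunits and in NADP-dependent forms. The NADP-dependent *idh-1* was at 148, 309 and 292 CPM in control worms and 310.0, 223 and 329 CPM in treated worms, and its log2 fold change was 0.20 (-0.46 to 0.86). The other NADP-dependent gene, *idh-2*, was at 22.9, 23.9 and 20.0 CPM in control worms and 16.7, 21.7 and 18.99 CPM in treated worms, a log2 fold change of -0.22 (-0.68 to 0.24) that was among the 3 lowest of the list. Groups overlapped in both. The subunit genes *idha-1*, *idhb-1* and *idhg-1* of the NAD-dependent enzyme had log2 fold changes of -0.027, -0.0058 and -0.018. Those of *ogdh-1* and *dlst-1*, the E1 and E2 components of oxoglutarate dehydrogenase, were -0.079 and -0.051.

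Succinyl-CoA ligase joins an alpha subunit to one of 2 beta subunits. The alpha genes *sucl-1* and *sucl-2* were at 102, 154 and 82.0 CPM in control worms and 111, 97.7 and 87.9 CPM in treated worms, and at 135, 209 and 139 CPM in control worms and 164, 122 and 154 CPM in treated worms, respectively. The beta gene *suca-1* was at 105, 135 and 102 CPM in control worms and 91.5, 103 and 97.5 CPM in treated worms. Here 2 treated values were below all controls and the third was just above the lowest control, with a log2 fold change of -0.23 (-0.66 to 0.20, unadjusted p = 0.266 by edgeR's quasi-likelihood test). The other beta gene, *sucg-1*, was at 33.9, 38.4 and 47.2 CPM in control worms and 29.1, 38.5 and 46.7 CPM in treated worms. Log2 fold changes were -0.19, -0.13 and -0.062 for *sucl-1*, *sucl-2* and *sucg-1*. The cycle closes with *fum-1* (fumarase, -0.062) and malate dehydrogenase. Cytosolic *mdh-1* was at 301, 484 and 349.8 CPM in control worms and 448, 303 and 407 CPM in treated worms. Mitochondrial *mdh-2* was at 196, 403 and 236 CPM in control worms and 292, 225 and 303 CPM in treated worms. Both followed the library pattern described above, with log2 fold changes of 0.029 (-0.54 to 0.60) and -0.024 (-0.66 to 0.61).

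The gene *icl-1* (WBGene00001564, chromosome V from 724332 to 728004) encodes isocitrate lyase and malate synthase in 1 protein and thus both enzymes particular to the glyoxylate cycle. Its level was 281, 311 and 238 CPM in control worms and 622, 253 and 272 CPM in treated worms. A single library, CGP37157 replicate 1, was about double the rest, and the other treated libraries lay within the control range. The log2 fold change of 0.47 (standard error 0.34, 95% interval -0.28 to 1.22, unadjusted p = 0.197 by edgeR's quasi-likelihood test) turned to -0.075 without that library. The same library was the highest for *pck-1*.

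**Figure D3:**
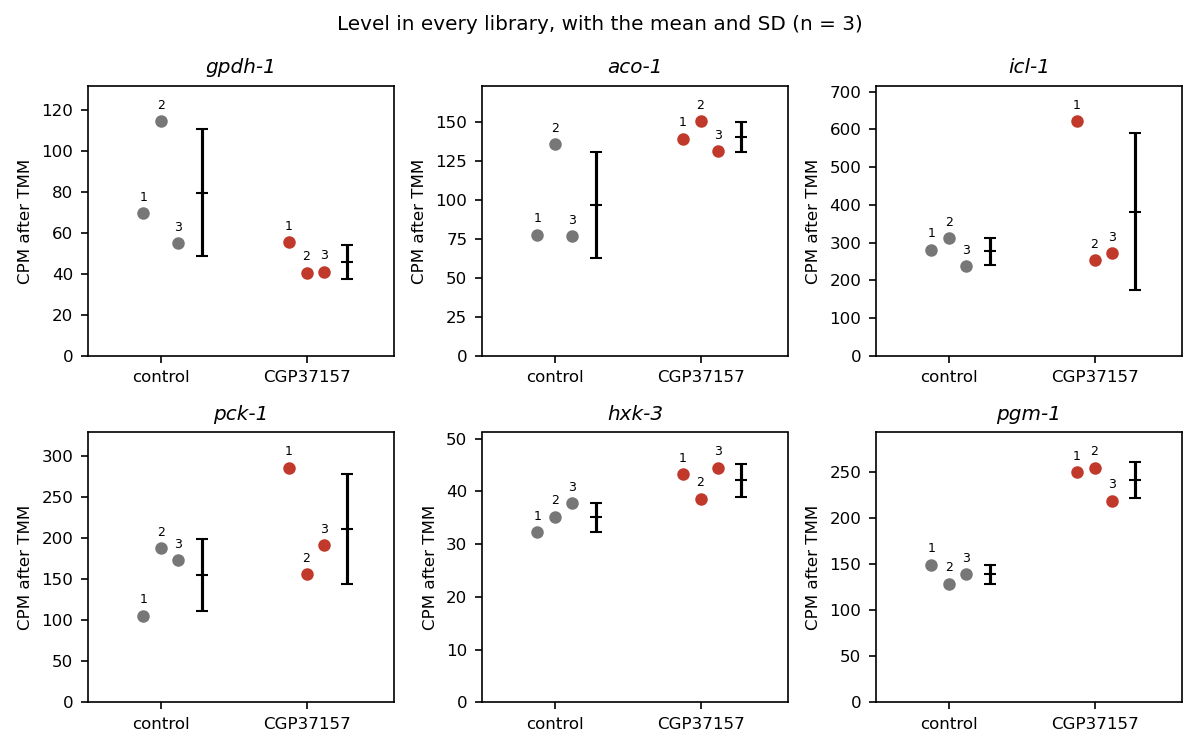
Level in CPM after TMM in each library (points, numbered by replicate) with the mean and SD (n = 3) for *gpdh-1*, *aco-1*, *icl-1*, *pck-1*, *hxk-3* and *pgm-1*. Control replicate 2 is far above the other controls in *gpdh-1* and *aco-1*, CGP37157 replicate 1 is far above all others in *icl-1* and *pck-1*, and the groups of *hxk-3* and *pgm-1* do not overlap.

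Glycerol-3-phosphate dehydrogenase diverts a glycolytic intermediate towards glycerol and glycerolipids, and *gpdh-1* is known in *C. elegans* for its induction by hypertonic stress. The gene *gpdh-1* (WBGene00009824, chromosome I from 14075837 to 14078211) was at 69.8, 115 and 55.1 CPM in control worms and 55.5, 40.7 and 41.2 CPM in treated worms. Control replicate 2 was the highest. The lowest control was just under the highest treated library, so on the TMM scale the groups overlapped by a narrow margin. Raw counts were 1669, 1975 and 1207 in control and 1261, 1113 and 964 in treated worms. Scaled by library totals alone, the groups did not overlap. The share of all tested genes without overlap on that scale was not taken. Means were 79.9 ± 31.1 CPM without and 45.8 ± 8.42 CPM with the compound (SD, n = 3 each), and the log2 fold change was -0.80 (standard error 0.28, 95% interval -1.43 to -0.17). By edgeR's quasi-likelihood test the unadjusted p was 0.0174 and the adjusted one 0.546, and DESeq2 gave an adjusted p of 0.342. The log2 fold change stayed negative whichever of the 6 libraries was left out, between -1.01 and -0.45, the smallest without control replicate 2. The unadjusted p of the quasi-likelihood test did not stay under 0.05. It was 0.0644 without control replicate 2, 0.0581 without CGP37157 replicate 2 and 0.0620 without CGP37157 replicate 3. In the other fits without 1 library it was between 0.00551 and 0.0170. Of the 24 tested tissue markers, 16 were also below 0 and 8 above, where 47.4% of all tested genes were above 0. Those below 0 included the 4 muscle markers (log2 fold changes of -0.50 to -0.37) and both pharynx markers (-0.56 and -0.45). Above 0 were 5 of the 7 germline markers and 2 of the 5 intestinal ones. On the TMM scale the sum of every marker list except the pharynx was highest in control replicate 2. Scaled by library totals alone, this did not hold for the germline and muscle lists either. The part of any tissue in the difference of *gpdh-1* was not tested. Exons of *gpdh-1* overlap those of *gadr-6* on the other strand. The paralog *gpdh-2* was at 112, 146 and 122 CPM in control worms and 117, 114 and 142 CPM in treated worms, with overlapping groups and a log2 fold change of -0.030 (-0.47 to 0.41). Per kb of exons, *gpdh-1* took 41.7% ± 6.75 of the summed level of the pair in control and 30.3% ± 5.21 in treated worms (SD, n = 3 each). The exact permutation test gave p = 0.2 and an adjusted p of 0.75 over 15 shares. Its smallest possible p is 0.1, so it could not have called any share.

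Trehalose-6-phosphate synthase makes the precursor of trehalose. Of its genes, *tps-1* did not share the pattern of most others. The level of *tps-1* was 34.7, 27.5 and 33.3 CPM in control worms and 30.9, 41.7 and 32.5 CPM in treated worms. It was lowest in control replicate 2. For *tps-2* it was 50.1, 58.6 and 50.0 CPM in control worms and 55.9, 58.5 and 52.5 CPM in treated worms. Their sum was 84.8, 86.1 and 83.3 CPM in control and 86.7, 100.3 and 85.0 CPM in treated worms. On this TMM scale the range was narrow and control replicate 2 did not stand out. Without TMM scaling the pair took 0.00700% to 0.0112% of a library's counts. That share was lowest in control replicate 2 and highest in CGP37157 replicate 2. Log2 fold changes were 0.14 (-0.33 to 0.61) and 0.073 (-0.34 to 0.49).

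Levels of different genes were compared per kb of exons, which takes out gene length. In control worms *enol-1* was the highest at 479 ± 133 CPM per kb, followed by *cts-1* at 398 ± 83.2, *pck-2* at 332 ± 96.4, *mdh-1* at 329 ± 82.5 and *aldo-2* at 325 ± 93.6 (SD, n = 3). Neighbours in this order differed by less than their SD. In treated worms the values were 485 ± 95.9, 452 ± 89.5, 341 ± 42.6, 336 ± 64.8 and 367 ± 83.3 CPM per kb. The lowest of the tested genes were those of trehalose synthesis, with 13.8 ± 1.28 for *tps-2* and 7.30 ± 0.877 for *tps-1* in controls, below *idh-2* at 15.5 ± 1.43 and *pfk-1.1* at 17.2 ± 2.25 CPM per kb. At steps with several genes, 1 gene often led, and the shares named next overlapped between the groups. By summed level per kb, *hxk-1* took 66.8% ± 2.14 of the hexokinase level in control and 66.1% ± 2.83 in treated worms. The share of *aldo-2* in aldolase was 81.7% ± 2.22 and 84.4% ± 2.503, that of *pyk-1* in pyruvate kinase 82.0% ± 2.99 and 81.7% ± 4.29, and that of *mdh-1* in malate dehydrogenase 61.4% ± 3.19 and 61.5% ± 1.78. The pair *gpd-2* and *gpd-3* together took 57.8% ± 3.79 and 56.9% ± 3.59 of glyceraldehyde-3-phosphate dehydrogenase, and *pck-1* took 18.5% ± 2.34 and 22.7% ± 3.37 of the carboxykinase level (SD, n = 3 for each share). Groups overlapped in 13 of the 15 shares, and the other 2 were those of *aco-1* and of *pfk-1.1*, whose partner is near the limit of detection.

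**Figure D4:**
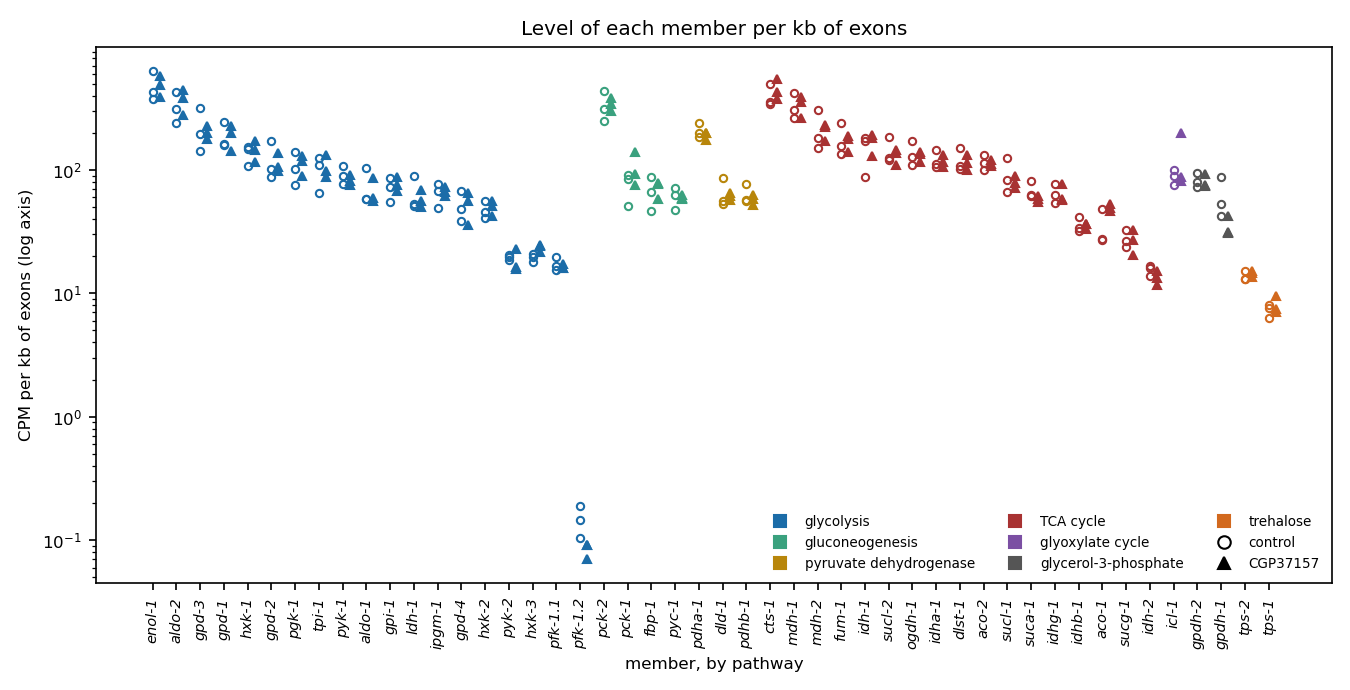
Level of each of the 48 genes in CPM per kb of exons on a log axis, in the 3 control libraries (open circles) and the 3 CGP37157 libraries (triangles), by pathway and by control level. The tested genes span from *tps-1* to *enol-1*, *pfk-1.2* lies far below them, and circles and triangles overlap in nearly all genes.

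A second list held 35 genes of linked pathways, of which 34 were matched and tested (*fgt-1* was not matched). By the quasi-likelihood test, 0 of them passed an adjusted p of 0.05, 1 had an unadjusted p under 0.05, and DESeq2 called 1. Of all tested genes, 1.4%, 4.79% and 2.1% did so, and a single gene among 34 is not set apart from these shares. Their median log2 fold change was -0.019, between -0.33 for *gyg-1* and 0.79 for *pgm-1*, with 15 above 0 and 19 below. The glycogenin gene *gyg-1* was at 51.6, 73.1 and 45.9 CPM in control worms and 47.7, 51.3 and 36.9 CPM in treated worms, with overlapping groups. The gene called by DESeq2 was *pgm-1* (WBGene00019890, chromosome II from 4889437 to 4891405), which the list names by its sequence name R05F9.6. It encodes phosphoglucomutase, which interconverts glucose 1-phosphate and glucose 6-phosphate and so links glycolysis to glycogen and to nucleotide sugars. Its level was 149, 129 and 139 CPM in control worms and 249, 254 and 218 CPM in treated worms. The groups were far apart, and control replicate 2 was here the lowest. Means were 139 ± 10.3 without and 240.5 ± 19.5 CPM with the compound (SD, n = 3 each), and the log2 fold change was 0.79 (standard error 0.19, 95% interval 0.37 to 1.22). By edgeR's quasi-likelihood test the adjusted p was 0.107, by its likelihood ratio test 0.0175 and by DESeq2 0.00714, and the log2 fold change lay between 0.74 and 0.87 in the 6 fits without 1 library.

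None of the other linked genes had an unadjusted p under 0.05 by edgeR's quasi-likelihood test. The 7 genes of the pentose phosphate pathway, which makes NADPH and ribose, had log2 fold changes between -0.17 and 0.13. In the 5 genes of succinate dehydrogenase, the TCA enzyme that is also complex II of the respiratory chain, they were between -0.075 and -0.023. The 6 genes of trehalose turnover (the phosphatase *gob-1* and the trehalases *tre-1* to *tre-5*) lay between -0.25 and 0.41, and the 6 genes that govern the entry of pyruvate, with its carrier and the kinase and phosphatase of pyruvate dehydrogenase, between -0.19 and 0.11. The glycogen phosphorylase gene *pygl-1* was at 459, 1076 and 799 CPM in control worms and 993, 635 and 1024 CPM in treated worms, again lowest in control replicate 1 and highest in control replicate 2, and its log2 fold change was 0.18 (-0.56 to 0.93). Of the remaining genes, *misc-1*, the mitochondrial oxoglutarate carrier, had groups that did not overlap, as 3.85% of all tested genes did in this direction, with 25.3, 31.4 and 33.1 CPM in control worms and 36.6, 34.1 and 36.8 CPM in treated worms, and its log2 fold change was 0.26 (-0.19 to 0.70).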

How the data were processed

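RNA sequencing was done on 6 libraries of whole N2 worms, 3 control and 3 treated, as the sample labels group them. Raw read counts, not normalized, were deposited in 2 tables, whose counts were identical for all 46904 identifiers. Per the file headers they also hold score values (the authors' scaled and rounded counts and their means), which were not used, and the authors' own fold changes and p-values from DESeq2 and edgeR, which were not used either. The submitters' processing notes name HISAT2 and featureCounts. Their versions, the strand setting and the genome build are not given in the sources used here. The library kit is stranded, but without the strand setting reads of overlapping genes on opposite strands may not be told apart. Exons of 15 of the 48 genes overlap another protein-coding gene. Among these, *gpd-2* overlaps *mai-1* and *tps-2* overlaps *arl-3* on the same strand, where no strand setting separates the reads.

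Counts were compared with edgeR 4.0.16's quasi-likelihood test (default settings, TMM) in R 4.3.3, with the condition alone in the model, on the 12385 genes that reached 1 CPM in 3 or more libraries. P-values were adjusted over all of them by the Benjamini-Hochberg method, with a threshold of 0.05. Standard errors and 95% intervals were derived from the test statistic. The scripts were checked on counts simulated for the 12385 genes of this comparison, of which 200 were changed, and found 96% of 4-fold and 36% of 2-fold changes with 7 false calls. The simulation drew each gene independently, with a spread set by its level and no shift shared within a library. These rates may therefore not hold for genes that vary together, as those described here did. Replicates all differed by more than sampling noise. Positions and exon lengths are from the Ensembl annotation of WBcel235. The labels pair control and treated libraries by number with a suffix whose meaning is not stated. Deviations of same-numbered libraries had correlations of 0.105, -0.508 and 0.387, and the numbers were not treated as pairs.

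The 48 genes and the lists were chosen with earlier results of these data known, and the shares of isoenzymes after the values had been seen. Among the 48 genes, values in every library are given for those past a threshold or with groups that do not overlap, for the 3 highest and 3 lowest fold changes, and for isoenzymes of 1 step. Linked genes were to be named where they had an adjusted or unadjusted p under 0.05, so that *gyg-1*, *pygl-1* and *misc-1*, and the markers *ges-1*, *elt-2* and *glp-1*, were named after their values were seen. Alternatives were other scaling factors, DESeq2 1.42.0, the likelihood ratio test, bias-adjusted deviances, other filters (none, or 5 CPM), a block for the replicate number, and fits without each library in turn.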

Additional observations from a re-analysis of the deposited data

How the results depend on the processing

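None of the listed genes that were tested passed an adjusted p of 0.05 in any of the 15 alternatives. The gene *pfk-1.2* was tested only in the fit without a low-count filter. The smallest adjusted p was 0.0653, for *aco-1* without control replicate 2. The number of listed genes with an unadjusted p under 0.05 was 1 in the main fit. It was 2 with library sizes only, RLE scaling factors, DESeq2, no low-count filter or the replicate block. In the other alternatives it was 0 or 1. The share of all tested genes was taken for the main fit alone (4.79%). The signs of small differences were not stable. They changed for 9 of the 47 genes with library sizes only, for 5 with DESeq2, and for 19 without control replicate 2, and 11 of the 47 kept their sign in all 6 fits that left out a library. The median log2 fold change of the 47 ranged from -0.12 to 0.19 over these 6 fits. Over the other alternatives it ranged from -0.053 to 0.046. The SD between the libraries' own medians was 0.23, a spread of single libraries and not of a difference between groups. With the replicate number as a block, 0 of the 47 genes were called, the median was 0.0022, and *gpdh-1* had a log2 fold change of -0.74. The block called 117 genes higher and 20 lower among all tested genes, and changed no call in either list. Among the linked genes, DESeq2 and the likelihood ratio test each called 1, *pgm-1* (log2 fold change 0.82 and 0.79), which no other alternative called. Of all tested genes, 144 were higher and 29 lower. The number of lower genes was 17 with library sizes only, 60 with DESeq2, 66 with the likelihood ratio test, 66 without a low-count filter, and 12 to 34 without 1 library. With 3 libraries a group, most intervals were wide enough to hold changes of single enzymes that are smaller than 2-fold.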
